A study of Mus musculus with 47 samples.

Results

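Ccl3, Ccl4, Ccl5, Ccl6 and Ccl9 encode inflammatory CC chemokines, and their mRNA levels were followed in 12 RNA-seq libraries of mouse macrophages. The genes were taken by symbol from every deposited RNA-seq table. All 5 were listed among the 51912 genes of the bone marrow-derived macrophage (BMDM) tables and among the 12771 to 23772 genes of the Raw264.7 tables, and all 5 passed the filter on low values in each of the 13 comparisons.

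BMDMs came from C57BL/6 mice and were differentiated in M-CSF. WT mice were Zmynd8-floxed littermates, and Zmynd8 cKO mice carried Lyz2-Cre in addition, which acts in myeloid cells. The BMDMs were left untreated (NT) or were given LPS at 100 ng/ml or IL-4 at 20 ng/ml for 6 h. Raw264.7 is a mouse macrophage-like line in which lentiviral CRISPR guides had knocked out either Zmynd8 or p65 (Rela). The Zmynd8 KO line was analysed as such and after ectopic expression of WT Zmynd8 or of the D/E-A mutant, in which acidic residues were changed to alanine. The p65 KO line was analysed as such and with WT p65 or p65 K122R, all under LPS. The labels name no treatment for the 3 Zmynd8 libraries, whereas the study's text places the sequencing of WT Zmynd8 and D/E-A cells after LPS, and the header of the WT p65 column does not mention p65 KO, so that unmodified Raw264.7 cells cannot be told apart from WT p65. Biological replicates had been mixed before sequencing of BMDMs, and each condition has 1 library. No difference below has a replicate check: a gene is called here at a fold change of at least 1.2 and the 95% limits given cover counting error only.

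These chemokines are small secreted proteins that draw leukocytes along a gradient by binding G protein-coupled receptors. Ccl3 and Ccl5 can signal through CCR1, and Ccl5 also through CCR3. Ccl6 and Ccl9 act on CCR1 and are known from rodents. In macrophages Ccl3, Ccl4 and Ccl5 are classical targets of LPS and NF-κB, and Ccl5 also of interferon signalling. Ccl6 is known as a chemokine that IL-4 and related cytokines can induce.

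The 5 genes lie within 138906 bases of chromosome 11 (GRCm38.p6, the RefSeq counterpart of mm10). Ccl5 occupies chr11:83525778-83530518, Ccl9 chr11:83572917-83578636, Ccl6 chr11:83587886-83593087 and Ccl3 chr11:83647843-83649378, all on the minus strand. Ccl4 is on the plus strand, where its curated transcript covers chr11:83662584-83664683. A predicted Ccl4 model starts further upstream inside Ccl3 and shares 57 exonic bases with it on the opposite strand. Whether counting used strand or this model is not given in the sources used here, so the values of Ccl3 and Ccl4 are uncertain to the extent of that overlap. The coding sequences of Ccl3 and Ccl4 matched at 69.8% of aligned positions, and the longest run their transcripts share is 9 bases. Ccl6 and Ccl9 matched at 66.8%, with a longest shared run of 25 bases between their whole transcripts.

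Ccl6 and Ccl9 have 4 coding exons and the other members 3. The additional short coding exon, which sets this pair of neighbours apart from the others, has the following RefSeq sequences.
Ccl6, chr11:83589757-83589804, minus strand, coding exon 2, 48 bases: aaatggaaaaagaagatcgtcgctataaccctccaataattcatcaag
Ccl9, chr11:83576375-83576446, minus strand, coding exon 2, 72 bases: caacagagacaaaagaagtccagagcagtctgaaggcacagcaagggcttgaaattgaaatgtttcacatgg

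Promoters are shown because Ccl6 and Ccl9, which are next to each other and alike in sequence, went opposite ways with IL-4. RefSeq promoters of Ccl3, Ccl6 and Ccl9 were found in the reference table, 3 of the 5 members, and the 250 bases before the annotated start are printed. Capitals mark the best local alignment between the Ccl6 and Ccl9 promoters, with 25 matches in 31 aligned columns. It lay 97 to 69 bases before the start of Ccl6 and 31 to 2 bases before that of Ccl9.
Ccl3, chr11:83649379-83649628, minus strand: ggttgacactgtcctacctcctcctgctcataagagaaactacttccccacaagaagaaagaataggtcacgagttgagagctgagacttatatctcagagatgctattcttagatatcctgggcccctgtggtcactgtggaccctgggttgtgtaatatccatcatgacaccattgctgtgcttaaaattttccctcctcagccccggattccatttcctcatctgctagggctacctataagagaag
Ccl6, chr11:83593088-83593337, minus strand: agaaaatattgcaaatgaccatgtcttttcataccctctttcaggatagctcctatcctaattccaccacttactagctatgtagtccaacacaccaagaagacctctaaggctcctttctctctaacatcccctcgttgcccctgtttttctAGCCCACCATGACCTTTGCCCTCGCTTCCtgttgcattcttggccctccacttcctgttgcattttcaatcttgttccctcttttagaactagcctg
Ccl9, chr11:83578637-83578886, minus strand: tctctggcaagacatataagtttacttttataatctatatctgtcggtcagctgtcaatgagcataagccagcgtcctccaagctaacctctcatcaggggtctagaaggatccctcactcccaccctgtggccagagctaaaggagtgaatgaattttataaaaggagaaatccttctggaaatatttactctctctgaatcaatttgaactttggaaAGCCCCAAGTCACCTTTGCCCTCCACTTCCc

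Short motifs were searched on both strands of these 250 bases. The ETS-type core GGAAGT, which myeloid factors such as PU.1 recognize, occurred 1 time in each of the 3 promoters and in 19.7% of the 32851 promoters of the table. TATAAA occurred only in that of Ccl9 among the 3, with 3 matches of which a pair overlap on opposite strands, and in 12.4% of all promoters. The pattern TGANTCA, an AP-1-like motif with any base allowed at its centre, and the NF-κB consensus each occurred 1 time. Both were in the Ccl9 promoter, against 6.75% and 3.9% of all promoters. The TGANTCA match reads TGAATCA, so it is a match to this loose pattern only. Such matches are a description of the letters in this window.

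The BMDM libraries held between 22597408 and 28386612 counts and the Raw264.7 libraries between 15127110 and 21042628 reads. Levels are given as RPM, reads scaled to a common library total. Zmynd8 itself had 87.1 RPM in WT NT against 81.5 in cKO NT, 79.0 against 86.8 under LPS, and 128 against 151 under IL-4. Counts over the whole gene cannot show the loss of the floxed exons, so they do not check the genotype. In the Zmynd8 KO line the deposited Zmynd8 value of 116 is the 1 value of its column that is not a whole number of reads, and it was not used. Rela was lower in p65 KO (50.6 RPM) than in WT p65 (102) and higher in K122R (351). All 10 macrophage markers, among them Csf1r and Adgre1, had reads in every library. Neutrophil markers summed to between 2.40 and 4.30 RPM in the NT and LPS libraries of BMDMs, with 5 to 8 of 10 detected, and to 395 in WT IL-4 and 525 in cKO IL-4, with all 10 detected.

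The 3 Zmynd8 libraries go against their label of Raw264.7 cells. All 10 neutrophil markers were present at a sum of 10446, 4455 and 7013 RPM in WT Zmynd8, D/E-A and Zmynd8 KO. They include Mpo and Elane, which encode granule enzymes of immature granulocytes. Only 4 of these markers were listed for the p65 libraries, with sums between 0.180 and 0.383. The list of eosinophil, mast cell and basophil markers summed to between 88.9 and 218 in the Zmynd8 libraries and to at most 1.26 in the p65 libraries. Every comparison within the Zmynd8 set rests on these libraries and cannot be given without them.

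LPS set Ccl5 apart from the other members in BMDMs. The members together took 0.105% of the counts in WT NT, 0.134% in cKO NT, 0.562% and 0.546% in WT and cKO LPS, and 0.109% and 0.142% in WT and cKO IL-4. Per kilobase of RefSeq transcript, Ccl6 was highest in WT NT (205 RPM per kilobase), followed by Ccl4 (194), Ccl9 (166), Ccl5 (101) and Ccl3 (91.1). The deposited TPM order the first places of that library differently, with Ccl9 at 477, Ccl4 at 457 and Ccl6 at 357. After LPS both scales place Ccl5 first, at 8919 and 8373 RPM per kilobase in WT and cKO. Its TPM of 23717 and 23635 made it the gene of rank 3 in each of these libraries. After IL-4 both scales place Ccl9 first and Ccl6 last. Ordered by level over the 6 libraries, each member's adjacent libraries differed beyond their counting limits except WT NT and WT LPS for Ccl3 and cKO LPS and WT LPS for Ccl6. In such bulk samples, fewer cells of a type and less RNA per cell cannot be told apart.

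**Figure D1:**
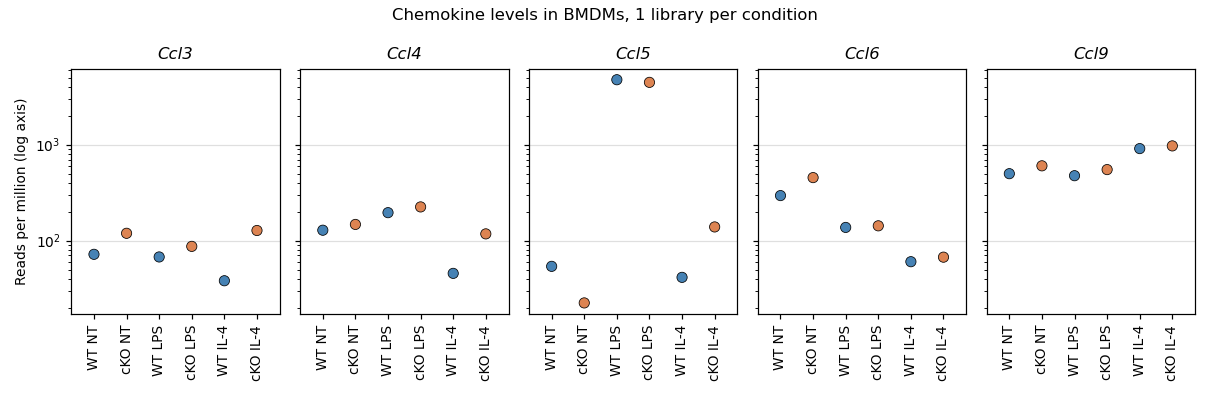
RPM of the 5 chemokines (log axis) in 6 BMDM libraries, 1 point per library, WT in blue and cKO in orange. Ccl5 spans from 22.4 in cKO NT to 4745 in WT LPS, whereas Ccl9 stays between 475 and 970.

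The comparison of LPS with NT asks how far each chemokine takes part in classical polarization. Ccl5 was the member with a large response. It had 54.0 RPM in WT NT and 4745 in WT LPS, an 86.4-fold difference (log2 6.43, limits 6.38 to 6.54). In cKO it went from 22.4 to 4454, a 190.1-fold difference (log2 7.57, limits 7.51 to 7.76), so that the larger ratio in cKO comes with the lower NT level and not with a higher level under LPS. Ccl4 followed at a distance, with 128 and 196 RPM in WT and 147 and 224 in cKO, a log2 fold change of 0.60 in both genotypes.

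Ccl6 was lower after LPS. Its level went from 295 to 137 RPM in WT (log2 -1.10, limits -1.16 to -1.04) and from 453 to 143 in cKO (log2 -1.66, limits -1.73 to -1.61). Ccl3, a textbook LPS target, hardly differed in WT, with 72.0 RPM in NT and 67.6 after LPS (log2 -0.09, limits reaching from -0.19 to just above no difference). In cKO it was 119 in NT and 87.1 after LPS (log2 -0.45, limits -0.54 to -0.37). Ccl9 had 498 and 475 RPM in WT (log2 -0.07) and 602 and 550 in cKO (log2 -0.13).

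LPS moved most of the transcriptome on this scale, which limits how these values can be read. Of the genes tested, 84.8% were called in WT and 85.5% in cKO, against 3 of 5 members (2 higher, 1 lower) and 4 of 5 (2 in each direction), and the median log2 fold change over all genes was -0.58 and -0.55. In WT 21.7% of genes were higher and 63% lower, and in cKO 25% and 60.5%. Scaling by the median ratio, which takes the typical gene as unchanged, raised all log2 fold changes by 0.69 in WT and 0.65 in cKO. On that scale Ccl3 was 0.59 and Ccl9 0.62 in WT, while in cKO Ccl3 turned from -0.45 to 0.19 and Ccl9 from -0.13 to 0.52. Ccl4 (1.29 and 1.25), Ccl5 (7.12 and 8.20) and Ccl6 (-0.41 and -1.02) kept their directions. NT and LPS libraries stand in separate tables of unnormalized counts, which were joined here. As a check of the stimulus, all 20 NF-κB response genes were higher in each genotype, with a median of 2.33 in WT and 2.62 in cKO. Of 18 other chemokine ligands tested, 12 were higher and 5 lower in WT, the highest being Cxcl9, a CXCR3 ligand, with 109 and 59080 counts (log2 8.85).

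**Figure D2:**
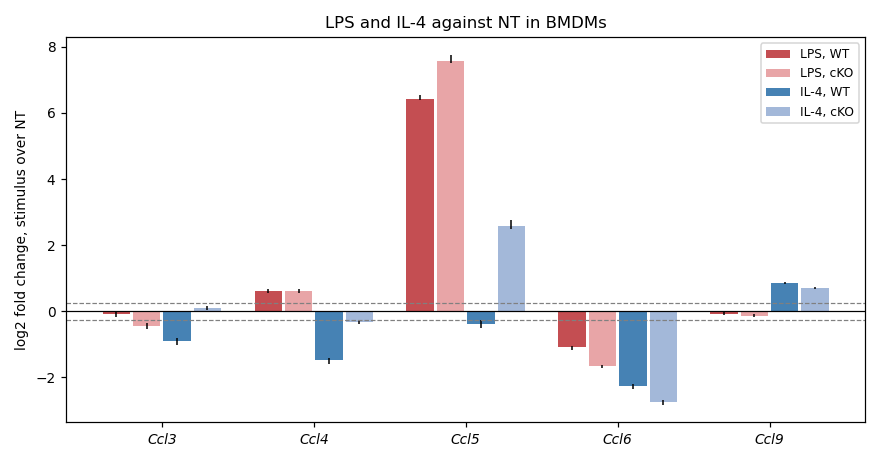
Log2 fold changes of LPS over NT (red) and IL-4 over NT (blue) for the 5 chemokines, WT in dark and cKO in light bars, scaled by library totals. Lines are 95% counting limits and dashes mark 1.2-fold. Ccl5 stands out under LPS (6.43 and 7.57), and its IL-4 bars point to opposite sides (-0.37 and 2.58).

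IL-4 drives alternative polarization, and the members split under it. In WT, 4 of 5 members were lower and 1 higher, all past 1.2-fold, against 64.4% of genes called (41.3% higher and 23.1% lower). Ccl6 had the largest difference, from 295 RPM in NT to 60.3 after IL-4 (log2 -2.27, limits -2.36 to -2.21). Ccl4 was 128 in NT and 45.6 after IL-4 (log2 -1.47, limits -1.59 to -1.40). Ccl3 was 72.0 and 38.2 (log2 -0.90), and Ccl5 was 54.0 and 41.4 (log2 -0.37, limits -0.49 to -0.27). Ccl9 was the exception, with 498 RPM in NT and 909 after IL-4 (log2 0.87, limits 0.84 to 0.90).

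In cKO, Ccl5 and Ccl9 were higher after IL-4 and Ccl4 and Ccl6 lower. Here 4 of 5 members were called, 2 in each direction, against 70.9% of genes (44.7% higher and 26.2% lower). Ccl5 was 22.4 in NT and 139 after IL-4, 5.97-fold higher (log2 2.58, limits 2.50 to 2.77), where WT had shown a lower level. Ccl3 was 119 and 127 (log2 0.10, limits 0.02 to 0.17) and Ccl4 was 147 and 118 (log2 -0.32). Ccl6 was 453 and 67.2 (log2 -2.74, limits -2.83 to -2.68), and Ccl9 was 602 and 970 (log2 0.69). The log2 response in cKO minus that in WT was 2.95 for Ccl5, 1.15 for Ccl4 and 0.99 for Ccl3, against -0.47 for Ccl6 and -0.18 for Ccl9. These differences were not tested, since each rests on 4 libraries of 1 condition each. Median ratio scaling shifted all log2 values by -0.14 in WT and -0.15 in cKO, which turned Ccl3 in cKO from 0.10 to -0.06. On the deposited TPM Ccl3 in cKO was 0.36 and Ccl4 -0.06. Interferon response genes were lower for 17 of 20 in WT (median -0.98) and higher for 19 of 20 in cKO (median 1.18), as Ccl5 was. NF-κB response genes were higher for 18 of 19 in WT (median 1.91) and for 20 of 20 in cKO (median 2.42), whereas Ccl3, Ccl4 and Ccl5 were lower in WT. The IL-4 libraries carry far more neutrophil marker reads than the NT libraries (395 and 525 RPM against 2.40 and 2.70), and the library numbers in their titles set them apart from the other 4. The part of either in these values cannot be told apart from that of IL-4.

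The comparison of cKO with WT within a treatment asks how the members respond to loss of the chromatin reader ZMYND8, a reader of histone marks that works with other chromatin regulators. In NT, 3 of 5 members were higher and 1 lower in cKO, while 54% of all genes were called (25% higher and 29% lower). Ccl5 was the member that was lower, with 54.0 RPM in WT and 22.4 in cKO (log2 -1.23, limits -1.42 to -1.12). Ccl3 was 72.0 and 119 (log2 0.72, limits 0.64 to 0.81) and Ccl6 was 295 and 453 (log2 0.62, limits 0.58 to 0.67). Ccl9 was barely past 1.2-fold (498 and 602, log2 0.27), and its deposited TPM of 477 and 464 point the other way. Ccl4 had 128 and 147 (log2 0.20), and its deposited TPM of 457 and 436 likewise point the other way. On TPM Ccl3 was 0.44, Ccl6 0.49 and Ccl5 -1.53, so all members were lower on that scale.

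Ccl5 went with the interferon genes in NT. All 20 interferon response genes were lower in cKO, with a median log2 fold change of -1.64 against -0.01 over all genes, and Ifit2 and Rsad2, antiviral effectors, had the lowest values at -3.13 and -2.65. The NF-κB response genes did not show such a shift, with 5 higher and 4 lower of 19 tested and a median of 0.01. Over the 6 BMDM libraries the genes whose pattern was closest to Ccl5, by root mean square difference of centred log2 levels, were Gbp2 (0.26), Cxcl10 (0.28) and Cfb (0.39), out of 9933 genes whose mean count reached 100. Ccl3 was nearest to Htr2b (0.16), Cd33 (0.26) and Fam177a (0.31), and Ccl4 to Pstpip1 (0.14), Tnfsf9 (0.21) and Gng11 (0.24). Ccl6 was nearest to Tubb2a (0.13), Panx1 (0.16) and Tm6sf1 (0.17), and Ccl9 to Usp30 (0.092), Ikbkg (0.094) and Snd1 (0.11). No member was among the 3 nearest genes of another member. This likeness is a description over 6 libraries that share treatments.

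After LPS the members differed little between genotypes. Only Ccl3 was called, with 67.6 RPM in WT and 87.1 in cKO (log2 0.36, limits 0.27 to 0.46), that is 1 of 5 members against 35.9% of all genes (22.6% higher and 13.3% lower). Ccl9 (475 and 550, log2 0.21) and Ccl4 (196 and 224, log2 0.20) were just under the fold limit, and on the deposited TPM both were past it (0.47 and 0.28). Ccl6 was 137 and 143 (log2 0.06, limits -0.01 to 0.12). Ccl5, the member that LPS induced most, was 4745 and 4454 (log2 -0.09, limits -0.10 to -0.08), so its high level was nearly the same in both genotypes. Of the 20 NF-κB response genes, 13 were higher and none lower in cKO (median 0.41), led by Il1b (log2 1.42), which encodes interleukin-1β. Of 16 other chemokine ligands tested, 6 were higher and 2 lower, with Ccl22 (log2 0.83) and the platelet factor gene Pf4 (0.91) at the top.

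After IL-4 Ccl3, Ccl4 and Ccl5 were higher in cKO. Ccl5 had 41.4 RPM in WT and 139 in cKO, 3.30-fold higher (log2 1.72, limits 1.65 to 1.84). Ccl3 had 38.2 and 127, 3.28-fold higher (log2 1.71, limits 1.64 to 1.84). Ccl4 had 45.6 and 118, 2.55-fold higher (log2 1.35, limits 1.27 to 1.46). Thus 3 of 5 members were called against 30.7% of all genes at 1.2-fold (17.3% higher and 13.4% lower), and the same 3 of 5 passed 2-fold, which 1.97% of all genes did. Ccl6 (60.3 and 67.2, log2 0.15) and Ccl9 (909 and 970, log2 0.09) were not called. Pseudocount, scaling and deposited TPM left all 5 calls of this comparison as they were.

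Other inflammatory genes differed the same way in this pair of IL-4 libraries. Of 19 other chemokine ligands tested, 15 were higher in cKO and none lower (median log2 0.78), with Ccl12 (16 and 353 counts, log2 3.21) and Ccl2 (363 and 1810 counts, log2 2.35) the highest. All 8 LPS markers were higher, with a median of 1.47 (Tnf, Il1b, Il6 and Ptgs2 are also in the NF-κB list), as were 17 of 20 NF-κB response genes and 18 of 20 interferon response genes. Of the 8 genes that mark IL-4 responses, 1 was higher and 3 lower (median -0.13). The gene neighbours on chromosome 11 that are no chemokines moved less, with 3 of 7 higher and a median of 0.13. Neutrophil marker sums were 395 in WT and 525 in cKO, and 6 of 9 such markers tested were higher; their part in the chemokine values was not tested.

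At 2-fold, fewer members were called in the other BMDM comparisons. Ccl5 was past 2-fold for cKO over WT in NT, where 3.83% of all genes were, and no member was after LPS, where 0.904% were. For LPS over NT, Ccl5 and Ccl6 were past 2-fold in each genotype, against 43.3% of genes in WT and 46% in cKO. For IL-4 over NT these were Ccl4 and Ccl6 in WT, against 16.2%, and Ccl5 and Ccl6 in cKO, against 21.1%.

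**Figure D3:**
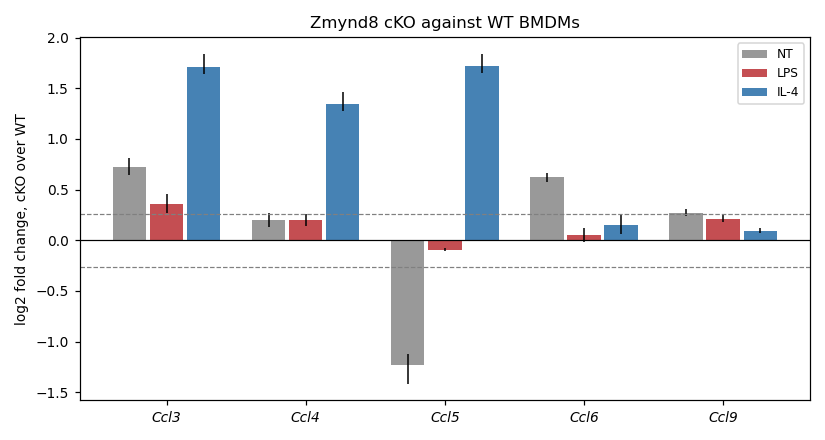
Log2 fold changes of cKO over WT in NT, LPS and IL-4 libraries for the 5 chemokines, with 95% counting limits and dashed lines at 1.2-fold. Ccl5 lies at -1.23 in NT, -0.09 after LPS and 1.72 after IL-4, and Ccl3 is above 1.2-fold in all 3 treatments.

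Receptors for inflammatory CC chemokines were read from the same libraries. Ccr1 had 141 RPM in WT NT and 143 in cKO NT, and under LPS 130.3 and 145. Under IL-4 it had 25.0 and 53.1, less than in NT, with cKO above WT (log2 1.06). Ccr3 had 22.2 RPM in WT NT and 26.2 in cKO NT, had 1.53 and 3.12 under LPS, and stood at 11.2 and 32.4 under IL-4. Ackr2, a scavenging receptor for inflammatory CC chemokines, had at most 2 counts in a BMDM library.

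In the Raw264.7 set the members together took a larger share of the reads than in NT BMDMs, although Ccl6 alone was lower in all 6 libraries than in either NT library. The share was 0.773% to 0.860% of the reads of the Zmynd8 libraries and 1.34% to 1.77% of the p65 libraries. These values come from other tables and another counting pipeline than the BMDM values, and the sets are given side by side. Per kilobase of transcript, Ccl5 came first in the Zmynd8 libraries (6549 to 8235 RPM per kilobase) and Ccl3 in the p65 libraries (8180 to 9667). Ccl6 was last in all 6. For Ccl3 and Ccl6 the sets of 3 differed from each other far more than the lines within a set. Ccl3 was between 762 and 925 RPM in the Zmynd8 libraries and between 6462 and 7637 in the p65 libraries. Ccl6 was between 123 and 132 in the Zmynd8 libraries and 14.9 or less in the p65 libraries. Ccl4 was the most even member, from 1287 to 1803 over all 6, and its sets overlapped. Ccl5 was between 3484 and 4381 in the Zmynd8 libraries and between 2485 and 3158 in the p65 libraries. Ccl9 went the other way, with 1777 to 1859 and 3118 to 5231. For Ccl5 the nearest libraries of the sets were 1.10-fold apart, and for Ccl9 1.68-fold, which is no more than the range within the p65 set. In the order of levels, the counting limits did not separate the 3 Zmynd8 libraries for Ccl6 from their neighbours in that set, p65 KO from WT p65 for Ccl6, or WT Zmynd8 from D/E-A for Ccl9. Ccr1 was apart between the sets too, with between 51.6 and 83.2 RPM in the Zmynd8 libraries and between 4.21 and 11.3 in the p65 libraries. The single genes nearest in pattern over these 6 libraries, out of 9414, were Clvs1 for Ccl3 (0.11), Clk3 for Ccl4 (0.060), Pdzd11 for Ccl5 (0.041), Cytip for Ccl6 (0.18) and Adamts4 for Ccl9 (0.081). These patterns all contain the split between the sets. The sets differ in the modified gene, in the treatment as labelled (LPS for the p65 set, none named for the Zmynd8 set) and in the marker reads described above, and these cannot be told apart.

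**Figure D4:**
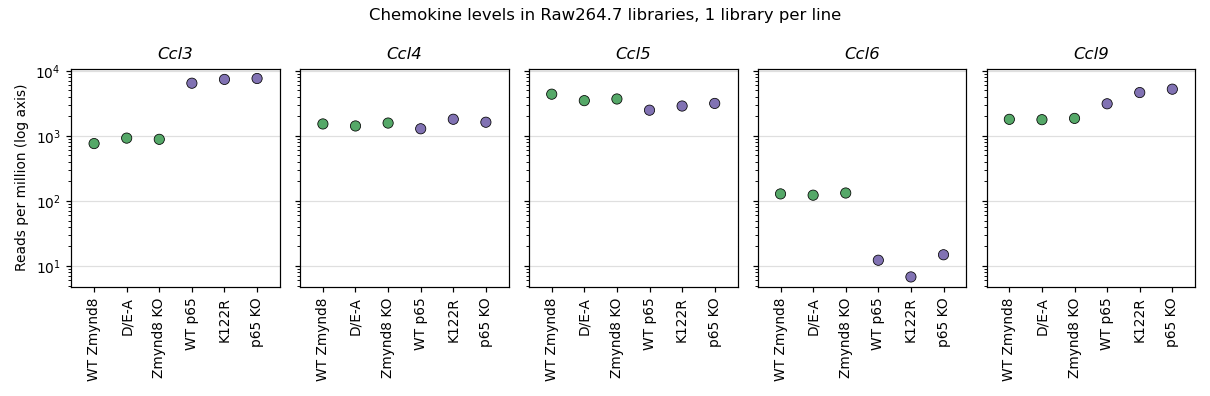
RPM of the 5 chemokines (log axis) in the 6 Raw264.7 libraries, 1 point per library, Zmynd8 set in green and p65 set in purple. The sets are apart for Ccl3 (762 to 925 against 6462 to 7637) and Ccl6 (123 to 132 against 6.79 to 14.9).

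The D/E-A mutant was made to change the acidic residues of the disordered region of ZMYND8, a region studied for droplet formation. Its comparison with WT Zmynd8 gave small differences for the members. Their deposited values, which are reads scaled within the table, were 13702 for WT Zmynd8 and 16977 for D/E-A for Ccl3 (log2 0.31, limits 0.28 to 0.34), and 78748 and 63943 for Ccl5 (log2 -0.30, limits -0.32 to -0.29). These 2 of 5 members were called, 1 in each direction, where 72.6% of all genes were (36.7% higher and 35.9% lower). Ccl4 (27454 and 26100, log2 -0.07), Ccl6 (2307 and 2251, log2 -0.04) and Ccl9 (32327 and 32604, log2 0.01, and -0.03 with median ratio scaling) were not. Of 18 other chemokine ligands tested, 7 were higher and 8 lower in D/E-A (median -0.02). Cxcl9 (log2 2.48) and Ccl2 (1.18), which attract T cells and monocytes, were the highest, and Cxcl1 and Ccl24 (both -1.87), which attract neutrophils and eosinophils, the lowest.

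Zmynd8 KO against WT Zmynd8 shares its control library with that comparison. Ccl3 was called with values of 14625 and 17883 (log2 0.29, limits 0.26 to 0.32), which is 1 of 5 members against 70.3% of all genes (33.8% higher and 36.5% lower), and on library totals of reads it was 0.22 and no member was called. Ccl5 had 84049 and 74587 (log2 -0.17), and Ccl4, Ccl6 and Ccl9 each had a log2 fold change of 0.12. Between D/E-A and Zmynd8 KO, set on RPM because they stand in different tables, none of the 5 members was called against 46.3% of all genes (24.8% higher and 21.5% lower), and their log2 fold changes lay between -0.15 and 0.06. Of the 20 NF-κB response genes, 11 were higher and 4 lower in D/E-A and 9 higher and 1 lower in Zmynd8 KO, each against WT Zmynd8. Of the 20 interferon response genes, 13 were higher and 4 lower in D/E-A (median 0.50). In Zmynd8 KO 10 were higher and 1 lower (median 0.27). The Ccl5 values were negative in both comparisons, unlike these medians. The ribosomal RNA gene Rn18s-rs5 took 13.7% of reads in WT Zmynd8, 6.50% in D/E-A and 11.1% in Zmynd8 KO. With totals that leave it out, a setting chosen after seeing the data, Ccl3 was 0.16 in D/E-A and 0.17 in Zmynd8 KO, and Ccl5 -0.45 and -0.29. In both comparisons Ccl3 was then no longer past 1.2-fold, and Ccl5 was the 1 member called, lower in each. Neutrophil markers were lower in D/E-A for 10 of 10 and in Zmynd8 KO for 7 of 10, and macrophage markers higher for 8 and 9 of 10. The part of these cells in the chemokine values was not tested.

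K122R replaces the lysine of p65 whose acetylation the study examined. After LPS, 4 of 5 members were higher and 1 lower in K122R than in WT p65, all past 1.2-fold, against 63.3% of all genes (30.8% higher and 32.5% lower). Ccl9 had deposited values of 47921 in WT p65 and 78801 in K122R (log2 0.72, limits 0.70 to 0.73), and Ccl4 had 19785 and 30616 (log2 0.63, limits 0.60 to 0.66). Ccl5 had 38197 and 48913 (log2 0.36) and Ccl3 had 99311 and 125478 (log2 0.34). Ccl6 was the member that was lower, with only 192 reads in WT p65 and 113 in K122R (log2 -0.70, limits -1.06 to -0.37). On library totals of reads Ccl3 (0.19) and Ccl5 (0.21) were no longer past 1.2-fold, since that scaling lowers all log2 fold changes by 0.14. Of 15 other chemokine ligands tested, 4 were higher and 8 lower. Of the 20 NF-κB response genes, 8 were higher and 3 lower (median 0.20). The deposited Rela values of this table were 1571 in WT p65 and 5963 in K122R (3.80-fold), so the amount of p65 mRNA differed between the lines as well as its sequence.

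p65 KO shares the WT p65 library, and there 4 of 5 members were also higher, against 51.9% of all genes (26.3% higher and 25.7% lower). Ccl9 had values of 48022 and 80485 (log2 0.75, limits 0.73 to 0.76), Ccl5 38277 and 48593 (log2 0.34) and Ccl4 19827 and 24977 (log2 0.33). Ccl6 was just past the fold limit on 192 and 225 reads, and its limits include no difference (log2 0.28, limits -0.01 to 0.56). Ccl3 had 99520 and 117515 (log2 0.24, limits 0.23 to 0.25), just under 1.2-fold. Of the 20 NF-κB response genes, 8 were lower, 1 higher and 11 neither in p65 KO (median -0.16), and Il6 had the lowest value (log2 -1.10). Set against each other on RPM, K122R and p65 KO differed past 1.2-fold in 1 of 5 members, against 51.6% of all genes (15.3% higher and 36.3% lower). This was Ccl6 with 113 and 225 reads (6.79 and 14.9 RPM, log2 -1.03, limits -1.47 to -0.80). The other members lay between -0.17 for Ccl9 and 0.15 for Ccl4, where the median over all genes was -0.13. Median ratio scaling raised all values by 0.15, with which Ccl4 was past 1.2-fold at 0.30, Ccl3 turned to 0.10 and Ccl5 to 0.01.

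In the Raw264.7 set only Ccl6 in K122R over p65 KO was past 2-fold, against 3.75% of all genes. The share of all genes past 2-fold was 18.4% for D/E-A, 25.6% for Zmynd8 KO, 20% for K122R and 15.8% for p65 KO, each over its WT line. For D/E-A over Zmynd8 KO it was 0.822%. The pairs without a WT line were compared on RPM plus 1, among genes with a mean of at least 10 reads. Comparisons with a WT line used deposited values plus 1, with a mean of at least 1, so the 2 kinds of share cannot be set against each other.

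**Figure D5:**
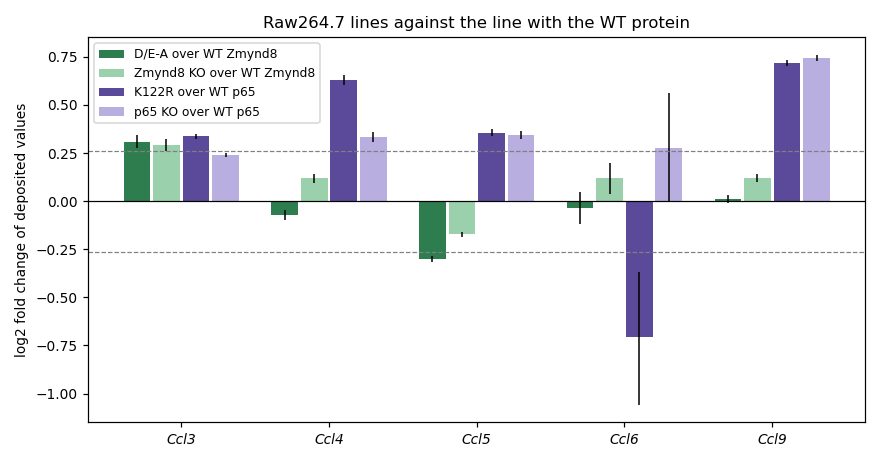
Log2 fold changes of the deposited values of each Raw264.7 line over the line with the WT protein, with 95% counting limits and dashed lines at 1.2-fold. Ccl9 is 0.72 in K122R and 0.75 in p65 KO, both against the same WT p65 library, and Ccl6 is -0.70 in K122R and 0.28 in p65 KO.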

How the data were processed

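The 12 RNA-seq libraries of the series were used, and 35 samples of other assays were not analysed here. The authors made BMDM libraries from poly(A) RNA, aligned reads to mm10 with TopHat, and deposited estimated counts and TPM per gene in 3 tables. The submitters' processing notes name Bowtie 0.12.2 and CASAVA 1.4. The Raw264.7 values in the 4 deposited tables are a signal, namely reads multiplied by a factor per library that the authors set for each table. Whole reads were recovered from them within a tolerance of 0.01 read for all values but 1. The tests had been planned for raw counts, and with 1 library per condition no count model was fitted.

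Estimated counts were rounded, divided by library totals and compared as log2(CPM + 1), with a mean of at least 10 counts. NT and IL-4 libraries, and NT and LPS libraries, were compared across tables of unnormalized counts. Raw264.7 libraries were compared as log2(deposited value + 1) within a table, with a mean of at least 1, or as recovered reads over library totals (RPM) across tables. The pseudocount makes the changes of low genes look smaller. A call is a fold change of at least 1.2. Limits are 95% Clopper-Pearson intervals. Rows that name no gene (431 and 2), 2 per-sample columns without a label and the authors' fold change and p-value columns were left out. Alternatives were a pseudocount of 0.1, median ratio and TMM scaling (edgeR 4.0.16, R 4.3.3), deposited TPM, library totals and a 2-fold rule. Further alternatives were no filter, and the 1.2-fold rule joined to an exact binomial test. Scripts ran in Python 3.11.15 with numpy 2.4.6, pandas 2.3.3 and scipy 1.17.1, and were tested on simulated data. Named genes are the members, receptors (not all are reported here), Zmynd8, Rela, up to 2 highest and 2 lowest called genes of each list and the 3 genes nearest in pattern. Members and lists were chosen with earlier results of these data known.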

Additional observations from a re-analysis of the deposited data

Results flagged for a closer look

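Ccl5 was the member whose genotype difference had opposite signs in different treatments. Its log2 fold change of cKO over WT was -1.23 in NT and 1.72 after IL-4, each from 1 library per genotype. Its response to IL-4 likewise had opposite signs, with -0.37 in WT and 2.58 in cKO. These pairs share libraries and are 2 views of the same 4 values, and the difference was not tested.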

How the results depend on the processing

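No paired analysis was possible because each condition has 1 library and no replicate numbers are shared, and no library could be left out for the same reason. Of the member counts per comparison, 67 alternative values stayed within 1.5 times and 17 did not. The 67 include the setting without a filter, which could not change a count because all members passed the filter. With the 2-fold rule the number of members called was 1 for cKO over WT in NT and 0 after LPS, 2 for LPS over NT in cKO, 2 for IL-4 over NT in each genotype, and 0 for D/E-A, Zmynd8 KO, K122R and p65 KO over their WT lines. Deposited TPM gave 3 for cKO over WT after LPS, where 38.6% of all genes were called. Median ratio and TMM scaling each gave 5 for LPS over NT in WT, where 78.2% and 78.3% of all genes were called. For the Raw264.7 settings that follow, the share of all genes is not given here, so these counts only describe the calls. Median ratio scaling gave 0 for Zmynd8 KO and 2 for K122R over p65 KO. Library totals of reads gave 0 for Zmynd8 KO and 3 for K122R. Totals without Rn18s-rs5, added after seeing the data, gave 1 for D/E-A. In Zmynd8 KO the count stayed at 1, with Ccl5 lower in place of Ccl3 higher. Directions of called values reversed 3 times: Ccl9 for cKO over WT in NT on TPM (-0.039), and Ccl3 for LPS over NT in cKO with median ratio (0.19) and TMM (0.16) scaling. For Ccl3 the turn is that of the scaling, which raised all log2 fold changes of this comparison by 0.65 (median ratio) and 0.62 (TMM). The cause of the Ccl9 reversal was not tested. The pseudocount of 0.1 changed no call. Depth limits Ccl6 in the p65 lines, at 113 to 225 reads.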
